A study of Caenorhabditis elegans with 19 samples.

Results

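Transcripts of 10 genes that build the meiotic chromosome axis and its cohesin were followed in dissected *Caenorhabditis elegans* gonads. They were him-3, htp-1, htp-2, htp-3, lab-1, rec-8, coh-3, coh-4, smc-1 and scc-3, and they are 10 of the 19985 protein-coding genes counted. They were chosen by name from knowledge of the pathway, but with earlier results of these data known. The study depleted a subunit of RNA polymerase I, the enzyme that transcribes ribosomal RNA, or a ribosome assembly chaperone, and its title places meiotic chromatin organisation among its subjects. In each strain a protein carried an auxin-inducible degron, a tag through which the plant hormone auxin sends a protein to be degraded. Gonads of strain ESC332, with RPOA-2 as the depleted polymerase subunit, gave 4 libraries after auxin and 4 after ethanol. Strain ESC422, with the chaperone GRWD-1 depleted, gave 3 libraries after auxin and 3 after ethanol, and strain ESC420, with the chaperone TSR-2 depleted, gave 3 after auxin and 2 after ethanol. All animals were hermaphrodites placed as late L4 larvae for 18 h at 20 °C on plates with 1 mM auxin or the same volume of ethanol, and were dissected as young adults, 20 gonads to a replicate. The promoter and tissue of the degradation machinery, and a strain without a degron on auxin, are not given in the sources used here, so an effect of auxin itself and an effect of depletion cannot be told apart. The labels do not say that replicates came from separate cultures, and p-values may measure only the spread between these samples.

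Early in meiotic prophase each pair of sister chromatids is held together by cohesin and folded into loops along a protein axis, from which homologs pair, synapse and recombine. Cohesin is a ring of 2 SMC proteins, closed by a kleisin and bound by SCC-3. Germ cells use the meiotic kleisins REC-8, COH-3 and COH-4 beside the mitotic kleisin SCC-1. In the worm the axis on top of cohesin is built from HORMA domain proteins: HTP-3 lies nearest to cohesin and recruits HIM-3, HTP-1 and HTP-2. LAB-1 brings in protein phosphatase PP1, which opposes the Aurora B kinase AIR-2 and keeps cohesion on the long arms of the bivalent.

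Protein-coding counts ran from 2422766 to 8012912 per library after auxin and from 1582308 to 4336988 after ethanol in the RPOA-2 strain, and from 4229644 to 8526501 after auxin and from 2031037 to 2993987 after ethanol in the GRWD-1 strain. The TSR-2 strain is held only in a table of fractional counts, with 43631 to 3950204 counts on protein-coding genes after auxin and 2055048 to 3766421 after ethanol. The library with 43631, auxin replicate 3, stands apart: it holds 99 counts on the 10 genes together, and 3 counts in it are worth 59.1 counts per 1000000 (CPM). Protein-coding genes took 17.8 to 20.2% of all fractional counts after auxin against 7.52 to 7.95% after ethanol in replicates 1 to 3 of the RPOA-2 strain, 19.3 to 30.4% against 8.43 to 11.1% in the GRWD-1 strain, and 11.96 to 15.9% against 8.58 to 13.3% in the TSR-2 strain, where alone the arms overlapped. The summed CPM of 10 germline markers overlapped between the arms in every strain, as did that of 10 oocyte markers; all were detected in every arm and none passed the test below. Sperm markers summed to at most 24.4 CPM. The summed CPM of 9 markers of the somatic sheath, the smooth-muscle-like layer around the germline, did not overlap: it was 974 to 1445 after auxin against 1498 to 2530 after ethanol in the RPOA-2 strain, 957 to 1329 against 2285 to 3289 in the GRWD-1 strain and 768 to 1544 against 2299 to 3065 in the TSR-2 strain, with no sheath marker at 0 in all libraries of an arm except tnc-2 after auxin in the TSR-2 strain. Of the sheath markers tested, 1 of 7, 1 of 6 and 1 of 5 passed as lower after auxin in those strains, beside 1.22%, 1.48% and 2.02% of all genes. The median log2 difference (auxin minus ethanol) of the tested sheath markers was -0.70, -0.08 and -1.11. In the GRWD-1 strain the sum therefore does not describe the typical sheath marker. The summed CPM of 6 muscle markers was 194 to 259 after auxin against 139 to 180 after ethanol in the GRWD-1 strain, and overlapped between the arms in the others. The summed CPM of 8 intestinal markers spread over 642 to 20343 after auxin and 1572 to 33250 after ethanol in the RPOA-2 strain. In the GRWD-1 strain it was 487 to 1830 after auxin and 847 to 4495 after ethanol. The arms of the TSR-2 strain did not overlap, with 197 to 838 after auxin against 1105 to 1884 after ethanol. There 1 of 4 intestinal markers tested passed as lower after auxin, beside 2.02% of all genes. The part of library depth, of the protein-coding share and of sheath, intestine and muscle in the values below was not tested. In these bulk samples, fewer cells of a type and less RNA per cell cannot be told apart. The degron acts on protein, and the transcripts of the depleted genes averaged 244 CPM after auxin against 198 CPM after ethanol for rpoa-2, 429.8 against 344 CPM for grwd-1 and 177 against 88.6 CPM for tsr-2 in their own strains, none past the test, which does not check the depletion.

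In none of the 3 strains did an axis or cohesin gene pass the test. In simulated data the test without the block missed most changes of 0.5, and most changes of 1, on the log2 scale. Between auxin and ethanol, 0 of 10 were called in the RPOA-2 strain, 0 of 10 in the GRWD-1 strain and 0 of 10 in the TSR-2 strain, with edgeR's quasi-likelihood test and a Benjamini-Hochberg adjusted p under 0.05 over all genes tested. Over all genes the same test called 298 of 7881 genes (3.78%) in the RPOA-2 strain, 202 higher (2.56%) and 96 lower (1.22%). It called 187 of 6948 (2.69%) in the GRWD-1 strain, 84 higher (1.21%) and 103 lower (1.48%), where scaling by total counts gave 156 higher and 115 lower. In the TSR-2 strain it called 163 of 6396 (2.55%), 34 higher (0.532%) and 129 lower (2.02%), and without auxin replicate 3 it called 6. At an unadjusted p under 0.05 the axis and cohesin genes numbered 4 of 10 with RPOA-2 depleted, beside 19.2% of all genes, 3 of 10 with GRWD-1 depleted, beside 17.8%, and 1 of 10 with TSR-2 depleted, beside 16.5%. DESeq2 called 1, 0 and 0 of the 10 in the same order, at an adjusted p under 0.05, beside 7.68%, 6.61% and 0.422% of all genes, so that 1 of 10 is near the share of all genes.

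The median log2 difference (auxin minus ethanol) of the 10 genes was 0.09 in the RPOA-2 strain, 0.03 in the GRWD-1 strain and 0.23 in the TSR-2 strain, beside -0.01, -0.00173 and -0.03 over all genes tested. The difference was above 0 for 8, 5 and 8 of the 10, beside 3814 of 7881, 3464 of 6948 and 3022 of 6396 of all genes. Regardless of sign, the median size of the log2 difference was 0.12, 0.28 and 0.36 for the 10, beside 0.26, 0.29 and 0.33 for all genes. Across the 3 strains, him-3, htp-2, rec-8, coh-3 and scc-3 had an estimate above 0 each time and lab-1 and smc-1 below 0 each time, 7 of 10 with 1 sign (70.0%), where 3112 of 6145 genes tested in all strains had 1 sign (50.6%). The sign of scc-3 in the RPOA-2 strain rests on an estimate of 0.02 and turned with DESeq2's scaling, that of scc-3 in the GRWD-1 strain, 0.07, turned without auxin replicate 2, and that of smc-1 in the TSR-2 strain, -0.03, turned without auxin replicate 3. The CPM of the arms were fully separate for 1 gene in the RPOA-2 strain (lab-1), beside 11.1% of all genes, for 3 in the GRWD-1 strain (him-3, coh-3 and coh-4), beside 22.7%, and for 3 in the TSR-2 strain (him-3, htp-2 and htp-3), beside 30.4%.

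**Figure D1:**
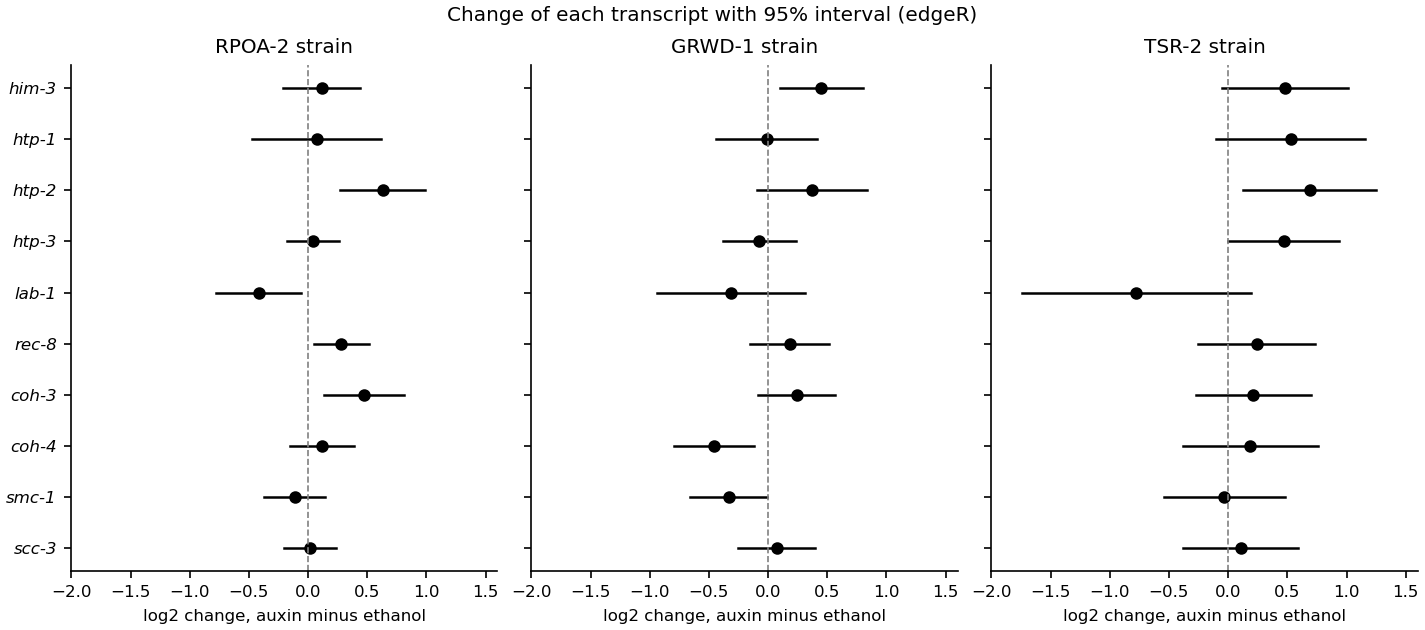
Log2 difference (auxin minus ethanol, x axis) of each of the 10 transcripts in the 3 strains, from edgeR; points are estimates and bars 95% confidence intervals, and the dashed line marks 0. Estimates lie between -0.78 (lab-1, TSR-2 strain) and 0.69 (htp-2, TSR-2 strain), and no gene passed an adjusted p under 0.05.

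Same-numbered libraries of the RPOA-2 and GRWD-1 strains deviated together, though in the RPOA-2 strain another pair did so about as much. The same comparisons were therefore also fitted with the number as a block. That fit called 268 genes (3.4%) in the RPOA-2 strain, among them 1 of the 10, htp-2, and 975 genes (14%) in the GRWD-1 strain, among them 2 of the 10, coh-4 and smc-1. In the TSR-2 strain, whose same-numbered libraries did not deviate together, it called 31 genes (0.485%) and 0 of the 10.

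HTP-3, the axis protein nearest to cohesin, is encoded by htp-3 (WBGene00002034, chromosome I, 4827072 to 4829791 on the plus strand of WBcel235). Its mean was the highest of the HORMA transcripts per kilobase of exon in every group. Its level was 213, 233, 241 and 251 CPM after auxin in the RPOA-2 strain, against 257, 189, 214 and 249 CPM after ethanol. After GRWD-1 depletion it was 266, 286 and 255 CPM after auxin, against 256, 264 and 314 CPM after ethanol. The arms overlapped in both strains, with log2 differences of 0.04 ± 0.10 (SE; adjusted p = 0.877) and -0.07 ± 0.14 (adjusted p = 0.828). With TSR-2 as the target, the 3 auxin libraries, at 363, 390.4 and 315 CPM, all lay above the ethanol libraries, at 286 and 246 CPM. There the log2 difference was 0.47 ± 0.23 (adjusted p = 0.303), and 0.51 without auxin replicate 3, whose 315 CPM are 16 counts.

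HIM-3, which loads on HTP-3 and is needed for homolog alignment and synapsis, is encoded by him-3 (WBGene00001862, chromosome IV, 6977508 to 6978765, plus strand). Gonads of the GRWD-1 strain had him-3 at 120.3, 135 and 123 CPM after auxin, against 80.0, 82.2 and 110.2 CPM after ethanol. Every auxin library there lay above every ethanol library, at a mean of 126 ± 7.86 against 90.8 ± 16.8 CPM (SD, n = 3 each), a fold of 1.36 (95% interval 1.07 to 1.74; edgeR adjusted p = 0.164, and 0.0516 with the replicate block). Its 84.3, 100.05, 96.6 and 117 CPM after auxin in the RPOA-2 strain lay within the span of 94.7, 74.1, 80.0 and 118 CPM after ethanol, and the log2 difference was 0.12 ± 0.15 (adjusted p = 0.730). For the TSR-2 strain him-3 stood at 139, 122 and 98.5 CPM after auxin, against 96.9 and 84.2 CPM after ethanol. These arms did not overlap, but auxin replicate 3, with 5 counts, lay above the higher ethanol library by less than 1 count is worth there (19.7 CPM), and the log2 difference of 0.48 ± 0.26 did not pass (adjusted p = 0.355). The end of him-3 overlaps prkl-1 on the opposite strand by 24 bases, and whether counting used strand is not given in the sources used here.

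HTP-1 and HTP-2 are closely related paralogs that link the axis to synapsis and to the protection of cohesion, HTP-1 having the larger role in pairing homologs. They are encoded by htp-1 (WBGene00002032, chromosome IV, 5390189 to 5391557, minus strand) and htp-2 (WBGene00002033, chromosome IV, 6419522 to 6420898, plus strand). Of all 10 genes, htp-2 had the highest estimate in the RPOA-2 and TSR-2 strains. Libraries of the RPOA-2 strain held htp-2 at 84.3, 78.8, 88.1 and 59.2 CPM after auxin, against 59.7, 37.6, 55.4 and 46.9 CPM after ethanol. It was higher after auxin in 4 of 4 same-numbered pairs, and the arms overlapped only through auxin replicate 4 and ethanol replicate 1, which differ by less than 1 CPM. The fold was 1.55 (95% interval 1.21 to 1.99), a log2 difference of 0.63 ± 0.16 with an adjusted p of 0.0577 by edgeR. It passed with the replicate block (adjusted p = 0.0480), with DESeq2 (0.0213), with total-count scaling (0.0462), with the series of library numbers as a covariate (0.0353) and without auxin replicate 4 (0.0429). It did not pass with RLE size factors (adjusted p = 0.0777), no filter on low counts (0.0698), genes averaging 50 counts or more (0.0504), all groups in 1 fit (0.121), replicates 1 to 3 (0.0809) or fractional counts (0.130), nor without each of the other 7 libraries (0.107 to 0.196).

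Values of htp-2 in the GRWD-1 strain were 69.3, 91.9 and 60.8 CPM after auxin, against 41.9, 59.5 and 68.1 CPM after ethanol, with a log2 difference of 0.37 ± 0.21 (adjusted p = 0.401). These arms overlapped, and ethanol replicate 3 exceeded auxin replicate 3. Those of the TSR-2 strain were 127, 107 and 98.5 CPM after auxin, against 80.1 and 61.5 CPM after ethanol. All auxin libraries lay above both ethanol libraries there, at a fold of 1.61 (95% interval 1.09 to 2.38; adjusted p = 0.187, and 0.180 without auxin replicate 3). However, auxin replicate 3, with 5 counts, lay above the higher ethanol library by less than 1 count is worth there (19.7 CPM). The paralog htp-1 gave another picture. It had 60.5, 59.4, 62.5 and 37.7 CPM after auxin in the RPOA-2 strain, against 82.6, 42.3, 38.7 and 44.9 CPM after ethanol. Auxin replicates 1 to 3 lay between 59.4 and 62.5 CPM, and the highest and the lowest values of the strain were ethanol replicate 1 and auxin replicate 4. Its log2 difference was 0.07 ± 0.25 (adjusted p = 0.916), and leaving out single libraries moved it between -0.05 and 0.35. For the GRWD-1 strain htp-1 averaged 63.4 ± 5.35 CPM after auxin against 62.9 ± 14.9 CPM after ethanol, and in the TSR-2 strain it had 95.7, 76.2 and 59.1 CPM after auxin against 44.0 and 71.4 CPM after ethanol (log2 difference 0.53 ± 0.31, adjusted p = 0.408). That estimate was 0.22 without ethanol replicate 1 and 0.98 without ethanol replicate 2.

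**Figure D2:**
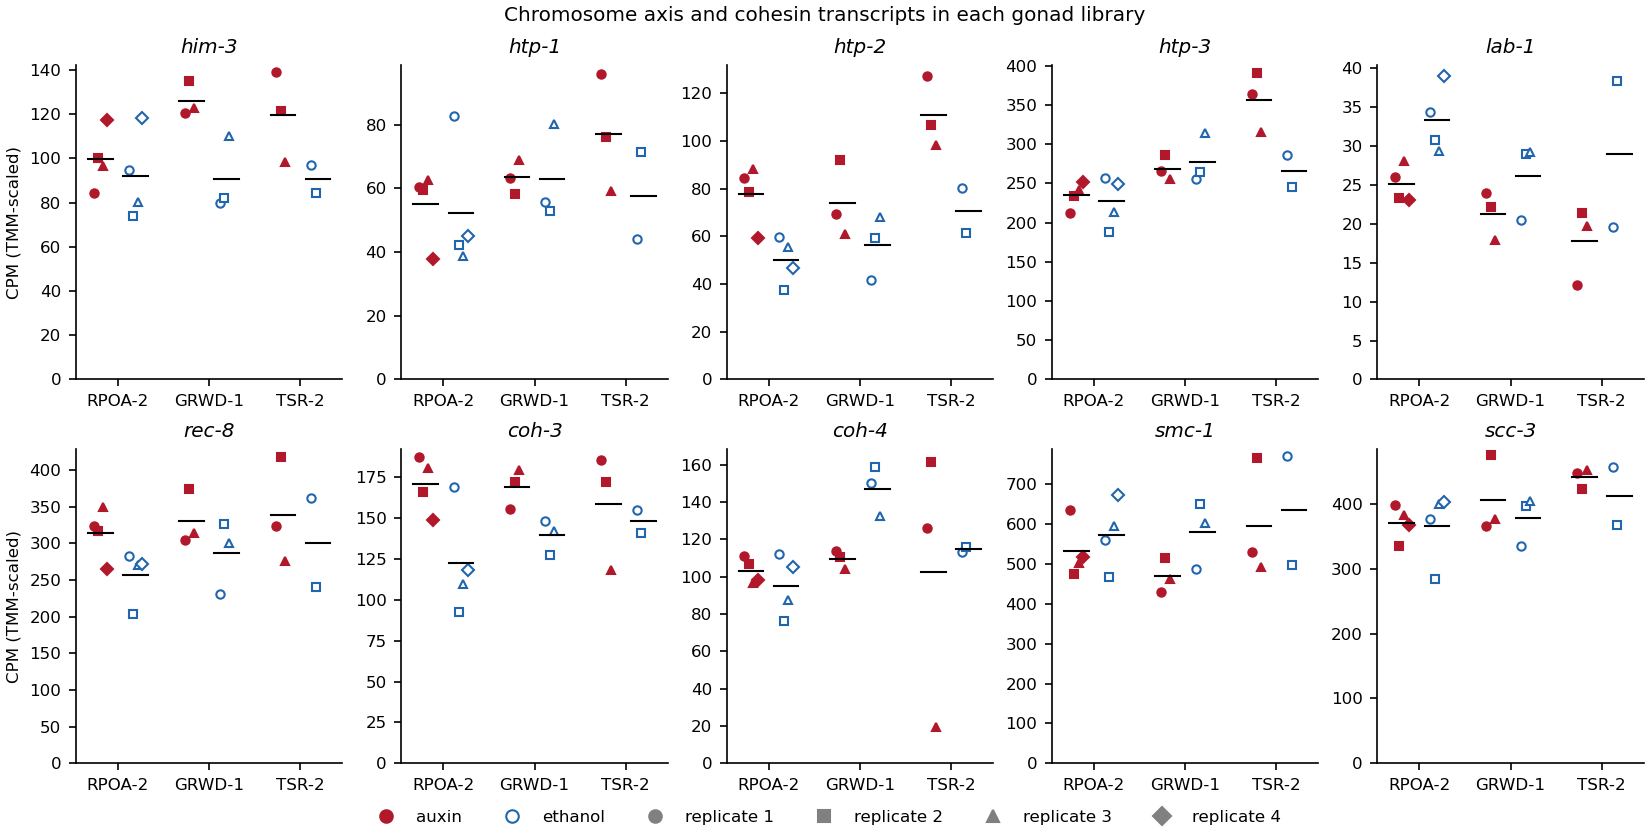
Level of each transcript in every library (y axis, CPM scaled by TMM, from 0), by strain, with auxin filled and ethanol open, the shape giving the replicate number and the bar the mean. The auxin points of htp-2 lie high in the RPOA-2 and TSR-2 strains, lab-1 lies between 23.0 and 28.1 CPM after auxin and 29.4 and 39.1 CPM after ethanol in the RPOA-2 strain, and coh-4 of TSR-2 auxin replicate 3, at 19.7 CPM, is a single count.

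Because the paralogs resemble each other, reads could be split between them in counting. The fractional counts, which include reads placed at several positions, were 1.00 times the protein-coding counts for htp-1 and 0.9996 times for htp-2 over the 12 libraries in both tables. The log2 difference of htp-1 and htp-2 summed was 0.37 in the RPOA-2 strain, 0.18 in the GRWD-1 strain and 0.62 in the TSR-2 strain (adjusted p = 0.303, 0.624 and 0.178). Within a library, htp-1 made up 41.3 ± 1.70% of htp-1 plus htp-2 counts after auxin and 50.3 ± 7.14% after ethanol in the RPOA-2 strain (SD, n = 4 each), a difference of -8.97 points (two-sided exact permutation p = 0.114). The share was 46.5 ± 7.25% after auxin against 52.7 ± 5.12% after ethanol in the GRWD-1 strain (exact p = 0.3), and 40.7 ± 2.84% against 44.6 ± 12.9% in the TSR-2 strain (exact p = 0.8). The mean was lower after auxin each time and the arms overlapped each time. Within same-numbered pairs the htp-1 share was lower after auxin in 3 of 4 in the RPOA-2 strain and in 3 of 3 in the GRWD-1 strain, and an exact sign-flip test over pairs gave p = 0.25 in each, the smallest p that 3 pairs allow. The 4 auxin libraries of the RPOA-2 strain lay within 38.9 to 43.0%, and its ethanol libraries spread from 41.1 to 58.1%.

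LAB-1, the worm's long-arm cohesion protector, is encoded by lab-1 (WBGene00007278, chromosome I, 9657012 to 9658023, minus strand), the lowest of the 10 transcripts per kilobase of exon in every group. Gonads of the RPOA-2 strain had lab-1 at 26.01, 23.4, 28.1 and 23.0 CPM after auxin, against 34.4, 30.8, 29.4 and 39.1 CPM after ethanol. Every auxin library lay below every ethanol library, and the fold was 0.749 (95% interval 0.584 to 0.960; edgeR adjusted p = 0.186, and 0.304 with the replicate block). For the GRWD-1 strain lab-1 stood at 24.0, 22.1 and 17.9 CPM after auxin, against 20.5, 29.0 and 29.2 CPM after ethanol, and the arms overlapped through ethanol replicate 1 (log2 difference -0.31 ± 0.29, adjusted p = 0.621). With TSR-2 depleted it had 12.2, 21.4 and 19.7 CPM after auxin, against 19.6 and 38.4 CPM after ethanol, with a log2 difference of -0.78 ± 0.47 (adjusted p = 0.426). That was the lowest estimate among the 10 genes in any strain, and the counts behind the 3 auxin values were 22, 71 and 1. Leaving out single libraries moved it between -1.18 (without ethanol replicate 1) and -0.16 (without ethanol replicate 2). Here lab-1 overlaps T05F1.11 on the opposite strand by 52 exonic bases.

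REC-8, the kleisin that holds sister chromatids together through both divisions, is encoded by rec-8 (WBGene00004333, chromosome IV, 13349122 to 13353193, minus strand). Gonads of the RPOA-2 strain had rec-8 at 323, 317, 349.8 and 265 CPM after auxin, against 283, 204, 270.1 and 271 CPM after ethanol. It was higher after auxin in 3 of 4 pairs, the exception being replicate 4, with a fold of 1.22 (95% interval 1.03 to 1.43; adjusted p = 0.173). For the GRWD-1 strain rec-8 stood at 304, 374 and 314 CPM after auxin, against 231, 327 and 301 CPM after ethanol. All 3 pairs were higher after auxin while the arms overlapped, and the log2 difference of 0.18 ± 0.15 did not pass (adjusted p = 0.585, and 0.257 with the replicate block). Its 323, 418 and 276 CPM after auxin in the TSR-2 strain overlapped with 361 and 240.2 CPM after ethanol (log2 difference 0.24 ± 0.24, adjusted p = 0.687; 0.57 without ethanol replicate 1 and 0.04 without ethanol replicate 2).

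COH-3 and COH-4 are nearly identical kleisins that act redundantly and, in the worm, support synapsis and axis formation together with REC-8. Their genes are coh-3 (WBGene00000592, chromosome V, 14457422 to 14460141, plus strand) and coh-4 (WBGene00021560, chromosome V, 4169912 to 4175640, minus strand). Gonads of the RPOA-2 strain had coh-3 at 188, 166, 181 and 149 CPM after auxin, against 169, 92.8, 110.0 and 118 CPM after ethanol. It was higher after auxin in 4 of 4 pairs, and only ethanol replicate 1 reached into the auxin range. The fold was 1.39 (95% interval 1.10 to 1.76), with an edgeR adjusted p of 0.121, and of 0.0610 with the replicate block. In the GRWD-1 strain coh-3 had 156, 172 and 179 CPM after auxin, against 149, 127 and 142.5 CPM after ethanol, and these arms did not overlap (log2 difference 0.24 ± 0.15, adjusted p = 0.441). Its 186, 172 and 118 CPM after auxin in the TSR-2 strain enclosed 155 and 141 CPM after ethanol.

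The paralog coh-4 had its lowest estimate in the GRWD-1 strain. There coh-4 had 114, 110.4 and 104 CPM after auxin, against 150.02, 159 and 133 CPM after ethanol, every auxin library below every ethanol library. The fold was 0.728 (95% interval 0.576 to 0.921), with an edgeR adjusted p of 0.143, and coh-4 passed the test as lower after auxin with the replicate block (log2 difference -0.46, adjusted p = 0.0250). With RPOA-2 depleted, coh-4 had 111, 107, 96.8 and 98.1 CPM after auxin, against 112, 76.0, 87.4 and 105 CPM after ethanol, with overlapping arms and a log2 difference of 0.12 ± 0.12 (adjusted p = 0.666). Auxin libraries of the TSR-2 strain had coh-4 at 126, 161 and 19.7 CPM, against 113 and 116 CPM in ethanol libraries. The 19.7 CPM are 1 count, so that the mean after auxin, 102 CPM, lay below the 115 CPM after ethanol while the fitted log2 difference was 0.19 ± 0.28 (adjusted p = 0.796), and 0.33 without that library. The fractional counts were 1.008 times the protein-coding counts for coh-3 and 1.04 times for coh-4, where the median over genes tested in the RPOA-2 strain was 1.01. Annotated exons of coh-4 share 327 bases with Y45G5AM.7 on the same strand. The log2 difference of coh-3 and coh-4 summed was 0.33 in the RPOA-2 strain, -0.08 in the GRWD-1 strain and 0.16 in the TSR-2 strain (adjusted p = 0.197, 0.819 and 0.795).

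How reads on the 327 exonic bases that coh-4 shares with Y45G5AM.7 were counted is not given, which bears on its level per kilobase. Per kilobase of exon, rec-8 supplied about as much counted transcript as coh-3 and coh-4 together. Its share of the kleisin counts per kilobase was 49.2 ± 1.86% after auxin against 50.3 ± 3.14% after ethanol in the RPOA-2 strain (exact permutation p = 0.6, n = 4 each) and 50.1 ± 2.44% against 45.6 ± 5.21% in the GRWD-1 strain (exact p = 0.3, n = 3 each). In the TSR-2 strain it was 53.8 ± 8.42% after auxin against 48.8 ± 6.43% after ethanol (exact p = 0.6), and the difference was 5.01 points, and 0.336 points without auxin replicate 3. The arms overlapped in each strain. Among same-numbered pairs the rec-8 share was higher after auxin in 1 of 4 in the RPOA-2 strain (exact sign-flip p = 0.375) and in 3 of 3 in the GRWD-1 strain (exact sign-flip p = 0.25). The exact tests of the paralog and kleisin shares over unpaired libraries are 6, with Benjamini-Hochberg adjusted p between 0.6 and 0.8; the smallest p they allow is 0.0286 in the RPOA-2 strain and 0.1 in each of the other strains.

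**Figure D3:**
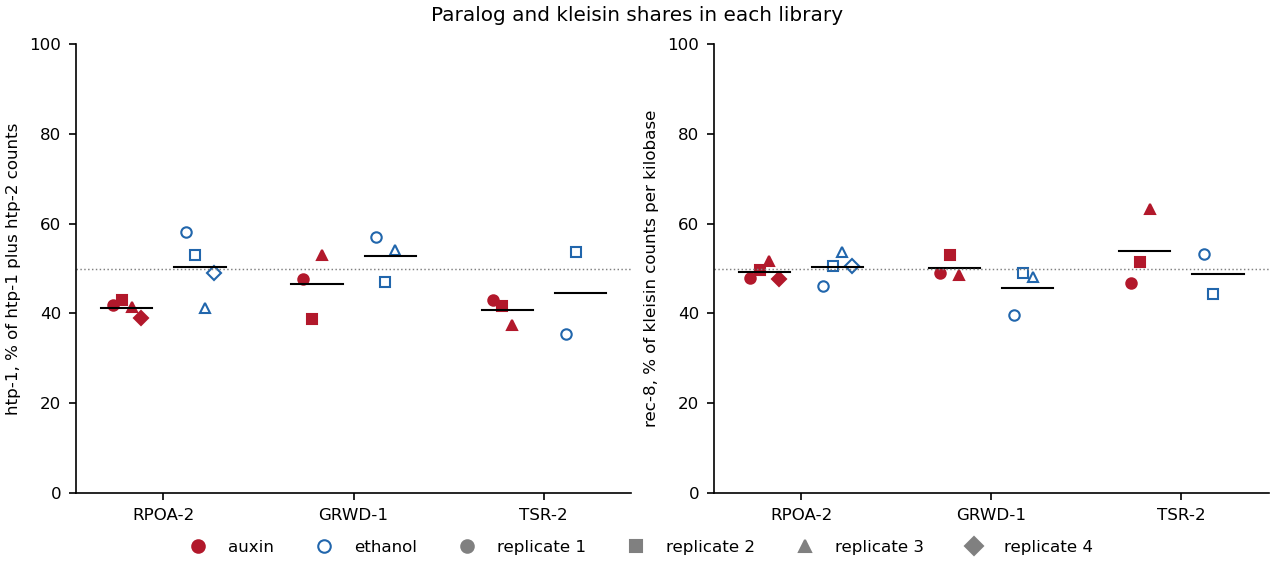
Left, htp-1 as a percentage of htp-1 plus htp-2 counts; right, rec-8 as a percentage of rec-8, coh-3 and coh-4 counts per kilobase of exon, in every library by strain, with auxin filled, ethanol open, shapes for replicate numbers and bars at the mean. The arms overlap in each strain for both shares, and after auxin in the RPOA-2 strain the htp-1 share lies at 38.9 to 43.0%.

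SMC-1, an ATPase arm of every cohesin ring, is listed in the annotation under its other name him-1 (WBGene00001860, chromosome I, 4951571 to 4957667, minus strand). In the GRWD-1 strain smc-1 had 429.6, 515 and 460.7 CPM after auxin, against 486, 649 and 602 CPM after ethanol. It was lower after auxin in 3 of 3 pairs while the arms overlapped, with a fold of 0.794 (95% interval 0.634 to 0.994; edgeR adjusted p = 0.268). It passed the test as lower after auxin with the replicate block (log2 difference -0.33, adjusted p = 0.0350). Its partner smc-3, which was not among the 10, had 325, 427 and 389 CPM after auxin against 395, 545 and 459.7 CPM after ethanol in that strain. There smc-3 had a log2 difference of -0.32 ± 0.16 (adjusted p = 0.305) and also passed with the block (adjusted p = 0.0386). In the RPOA-2 strain smc-1 had 634, 474, 502 and 517 CPM after auxin, against 559.8, 467, 595 and 672 CPM after ethanol, higher in 2 of 4 pairs (log2 difference -0.11 ± 0.12, adjusted p = 0.658). Levels of smc-1 in the TSR-2 strain were 529, 764 and 492 CPM after auxin, against 770.4 and 498 CPM after ethanol (log2 difference -0.03 ± 0.25, adjusted p = 0.965).

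SCC-3, the subunit that docks on the kleisin and is part of both mitotic and meiotic cohesin, is encoded by scc-3 (WBGene00004738, chromosome V, 12763945 to 12767933, plus strand). Its estimates were all within 0.11 of 0. In the RPOA-2 strain scc-3 spanned 335 to 399 CPM after auxin and 284 to 403 CPM after ethanol, averaging 371 ± 27.3 against 366 ± 55.97 CPM after ethanol (log2 difference 0.02, 95% interval -0.21 to 0.24). With GRWD-1 depleted it averaged 406 ± 59.8 CPM after auxin against 379 ± 37.8 CPM after ethanol (0.07, interval -0.25 to 0.40), and in the TSR-2 strain 441 ± 16.2 against 412 ± 63.1 CPM (0.11, interval -0.38 to 0.59). The 3 intervals leave room for a change of up to about 0.24, 0.40 and 0.59 on the log2 scale.

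Levels of different genes were set side by side as CPM per kilobase of exon. After auxin in the RPOA-2 strain the order was smc-1 (132), rec-8 (127), scc-3 (104), htp-3 (100.2), him-3 (85.1), coh-3 (80.5), htp-2 (62.7), coh-4 (50.3), htp-1 (44.8) and lab-1 (28.9). After ethanol it was smc-1 (142.1), rec-8 (104), scc-3 (103), htp-3 (97.0), him-3 (78.6), coh-3 (57.8), coh-4 (46.4), htp-1 (42.4), htp-2 (40.3) and lab-1 (38.5). Neighbours in these orders overlapped in their libraries throughout, except smc-1 and rec-8 after ethanol. The other strains kept the same upper set, smc-1, rec-8, scc-3 and htp-3, in every group, with rec-8 first after auxin in the GRWD-1 strain (134, overlapping with smc-1 at 116) and htp-3 first after auxin in the TSR-2 strain (152, overlapping with smc-1 at 147). The lowest place was held by lab-1 in all 6 groups. Summed per kilobase, the HORMA transcripts htp-3, him-3, htp-1 and htp-2 came to 293 ± 12.2 after auxin against 258 ± 44.0 after ethanol in the RPOA-2 strain, to 334 ± 21.8 against 293 ± 48.6 in the GRWD-1 strain and to 407 ± 55.2 against 295 ± 14.7 in the TSR-2 strain. The kleisins rec-8, coh-3 and coh-4 came to 258 ± 22.9 after auxin against 209 ± 35.5 after ethanol in the RPOA-2 strain, to 267 ± 17.6 against 254 ± 16.4 in the GRWD-1 strain and to 262 ± 77.6 against 248 ± 38.5 in the TSR-2 strain. The HORMA sums of the TSR-2 strain did not overlap, with 346 to 455 after auxin against 285 to 306 after ethanol. The arms of that strain were fully separate for 30.4% of all genes tested. The sum of 346 is auxin replicate 3, with 3 to 16 counts on each HORMA gene. The other sums overlapped. Levels of the TSR-2 strain come from a table scaled separately.

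**Figure D4:**
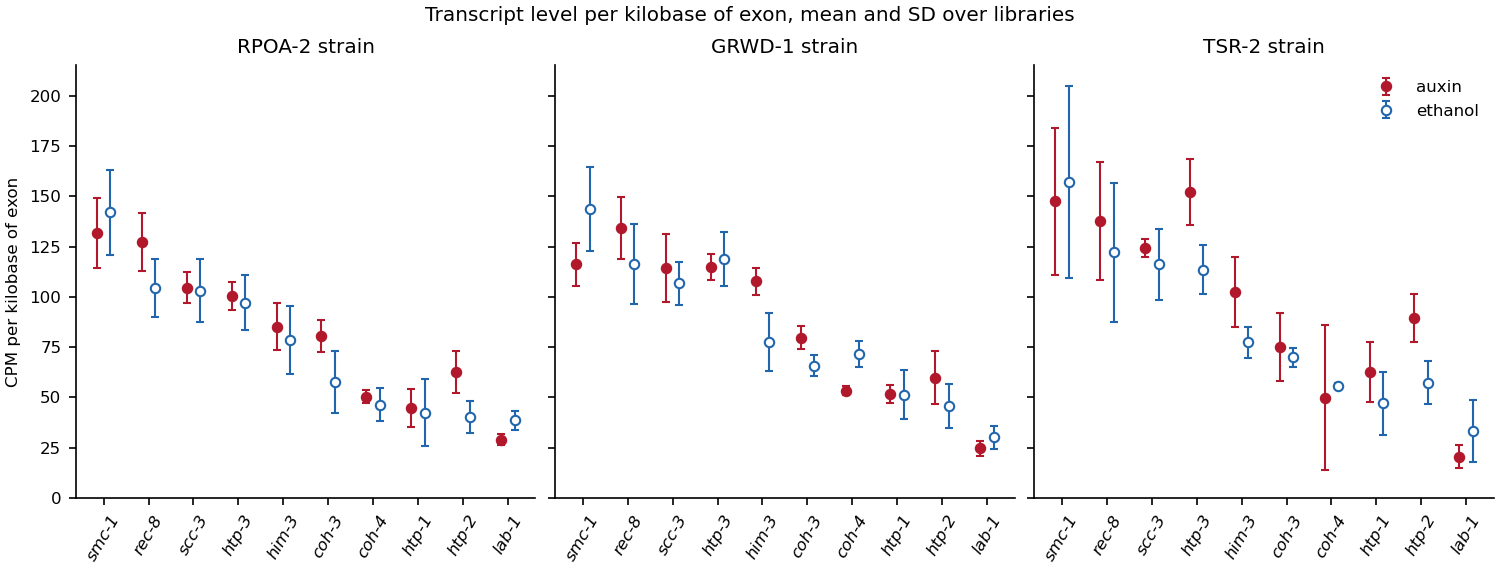
Mean level of each transcript per kilobase of exon (y axis, CPM per kilobase) in the 3 strains, with auxin filled and ethanol open and bars of 1 SD over libraries. In all 6 groups smc-1, rec-8, scc-3 and htp-3 hold the upper places and lab-1 the lowest, and htp-2 stands at 62.7 after auxin and 40.3 after ethanol in the RPOA-2 strain.

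Whether the difference between auxin and ethanol itself differed between strains was tested as an interaction over all genes. The RPOA-2 minus GRWD-1 interaction used protein-coding counts of all their libraries. Those with TSR-2 used rounded fractional counts, which lack replicate 4 of the RPOA-2 strain. They include TSR-2 auxin replicate 3, with 99 counts on the 10 genes. None of the 10 passed for the RPOA-2 minus GRWD-1 strains, where 1 of 9495 genes did (0.0105%), for RPOA-2 minus TSR-2, where 3 of 11079 did (0.0271%), or for GRWD-1 minus TSR-2, where 0 of 8757 did (0.0%; 384 at an unadjusted p under 0.05, and 12 called by DESeq2). The farthest apart was coh-4, with an interaction of -0.63 ± 0.36 for GRWD-1 minus TSR-2 (adjusted p = 0.979) and of 0.55 ± 0.20 for RPOA-2 minus GRWD-1 (adjusted p = 1.00). Over the 10 genes the interactions ran from -0.35 to 0.55 for RPOA-2 minus GRWD-1, from -0.43 to 0.43 for RPOA-2 minus TSR-2 and from -0.63 to 0.43 for GRWD-1 minus TSR-2. The medians over all genes were 0.01, 0.20 and 0.13. The lowest adjusted p among the 10 was 0.781.

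Genes that work with the axis and cohesin, in lists also chosen with earlier results of these data known, were read from the same fits. Of 10 cohesin partners, 1 rose in the RPOA-2 strain, beside 2.56% of all genes. It was scc-1, the mitotic kleisin, which averaged 175 ± 6.95 CPM after auxin against 125 ± 16.5 CPM after ethanol (log2 difference 0.49 ± 0.09, adjusted p = 0.0228). That call was lost without each of 7 of the 8 libraries in turn, at adjusted p of 0.0525 to 0.148. None of the cohesin partners, which include the loader scc-2, the releaser wapl-1, separase sep-1 and its inhibitor ify-1, passed in the GRWD-1 or TSR-2 strain. Of 6 genes of the synaptonemal complex central region, which joins the axes of paired homologs, 1 rose in the RPOA-2 strain and 1 in the TSR-2 strain, both times syp-1. The shares of all genes called higher there were 2.56% and 0.532%. In the RPOA-2 strain syp-1 averaged 266 ± 9.30 CPM after auxin against 179 ± 11.5 CPM after ethanol (log2 difference 0.56 ± 0.08, adjusted p = 0.0116; 0.0518 without auxin replicate 2 and 0.0748 without ethanol replicate 3). In the TSR-2 strain syp-1 averaged 383 ± 63.8 CPM after auxin against 187 ± 54.6 CPM after ethanol (log2 difference 1.10 ± 0.24, adjusted p = 0.0113; 0.0719 without auxin replicate 3 and 0.0529 without ethanol replicate 2). In the GRWD-1 strain syp-1 averaged 268 ± 3.82 CPM after auxin against 202 ± 44.0 CPM after ethanol, with a log2 difference of 0.36 ± 0.19 (adjusted p = 0.329).

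None of 13 regulators of the axis and of homolog pairing passed in any strain, among them the HORMA remodeller pch-2 and the kinases chk-2 and plk-2. None of 7 genes of the pathway that releases cohesion, among them air-2, the kinase that LAB-1 opposes, and the PP1 subunits gsp-1 and gsp-2, passed either. Of 11 genes of condensin and of the SMC-5/6 complex, relatives of cohesin, 1 fell in the TSR-2 strain, beside 2.02% of all genes. It was dpy-27, an SMC subunit of the condensin that represses the X chromosomes in the soma. This gene averaged 12.02 ± 10.4 CPM after auxin against 53.7 ± 1.45 CPM after ethanol. Its log2 difference was -1.65 ± 0.38 (adjusted p = 0.0141), and it did not pass when any 1 of the 3 auxin libraries was left out (adjusted p = 0.0601 to 0.0672). In auxin replicate 3, which enters that mean, 3 counts are worth 59.1 CPM, more than the ethanol mean of dpy-27. DESeq2 gave dpy-27 no adjusted p in that strain. In the RPOA-2 and GRWD-1 strains dpy-27 had log2 differences of -0.40 and -0.82 (adjusted p = 0.333 and 0.212). The median log2 differences of these lists lay between -0.21 (condensin and SMC-5/6, GRWD-1 strain) and 0.43 (central region, TSR-2 strain).

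**Figure D5:**
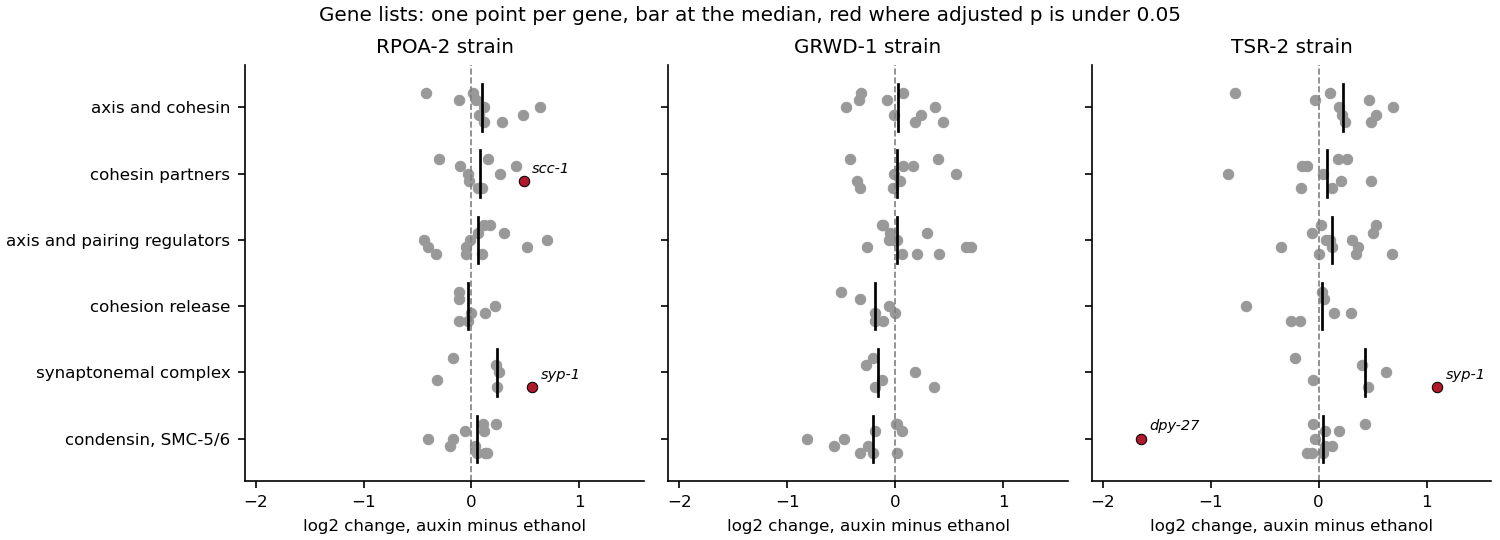
Log2 difference (auxin minus ethanol, x axis) of every gene of the axis and cohesin list and of 5 lists of partner genes in the 3 strains; each point is a gene, the bar is the median of the list, and red marks an adjusted p under 0.05. The red points are scc-1 and syp-1 in the RPOA-2 strain and syp-1 and dpy-27 in the TSR-2 strain; none of the 10 axis and cohesin genes is red.

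The 10 genes were correlated over the 14 libraries of the RPOA-2 and GRWD-1 strains, after each strain's mean was taken out. Of 45 pairs 37 had a positive Pearson r on the log2(CPM + 0.5) scale, with a median of 0.364. The share of positive pairs over all genes was not computed, so these values are not read as particular to the 10. The highest was 0.933 between rec-8 and htp-2, and the lowest -0.488 between coh-3 and lab-1. Among 5670 genes with a mean of at least 10 CPM, the nearest pattern to htp-2 was that of fask-1 (r = 0.966), to smc-1 that of pole-1 (0.966), to rec-8 that of cyk-3 (0.963), to him-3 that of syx-4 (0.954) and to scc-3 that of msh-2 (0.923). For coh-4 it was F32E10.9 (0.919), for coh-3 C16A11.3 (0.914), for htp-3 rps-29 (0.904), for lab-1 F15B9.10 (0.887) and for htp-1 ogr-2 (0.789), the lowest of the 10. These correlations describe 14 libraries that share treatment arms, replicate pairs and depth, and carry no test.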

How the data were processed

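RNA was measured by stranded total RNA sequencing in 19 libraries of dissected gonads. The authors deposited a table of gene counts for 19985 protein-coding genes in 14 libraries (RPOA-2 and GRWD-1 strains) and a table of fractional, not whole, estimated counts for 46930 features in 17 libraries, the only source for the TSR-2 strain. Per the submitters' processing notes, Trim Galore 0.6.10, HISAT2 2.2.1, Picard, featureCounts 2.0.6 and the build WBcel235 were used; settings are not given in the sources used here. How reads with several positions were counted bears on paralogs, and both tables were compared for each gene.

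Gene names, coordinates and exonic lengths came from an Ensembl annotation of WBcel235 that holds all 19985 IDs. Each strain was tested with edgeR 4.0.16 (R 4.3.3; filterByExpr, TMM, quasi-likelihood F test, no covariate) on its own libraries, with Benjamini-Hochberg adjustment over all genes tested; fractional counts were rounded to whole numbers first, with protein-coding genes only. Auxin is set over ethanol in every difference. CPM used TMM over all libraries of a table, and CPM per kilobase the union of exons. Differences of shares were tested by exact permutation of libraries, two-sided (scipy 1.17.1). Scripts were tested on simulated data with known changes. Of changes of 0.5 on the log2 scale, the test called 3.19% with the libraries of the RPOA-2 strain, 5.10% for GRWD-1 and 2% for TSR-2. Of changes of 1 it called 39.8%, 48.45% and 25.25%. The changed genes were drawn at random over all levels of expression, so these are not rates for the 10 genes. Intervals of log2 differences and folds come from the spread between libraries; the floor of 3 counts covers counting error only, since PCR reads without molecular identifiers are not independent molecules. The members and lists were chosen with earlier results of these data known. All 10 genes, smc-3 and the depleted genes are named; partner genes are given with values where the adjusted p was under 0.05 in a strain, a few others being named only as examples of their list, and nearest patterns by the highest Pearson r.

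Same-numbered libraries had correlations, with their arm means removed, of 0.175 to 0.314 (mean 0.235) in the RPOA-2 strain and 0.233 to 0.459 (mean 0.373) in the GRWD-1 strain. All were above 0.1, and those of the TSR-2 strain were -0.18 and -0.07. Other pairs ran from -0.44 to 0.30 (mean -0.07) in the RPOA-2 strain and from -0.45 to 0.14 (mean -0.19) in the GRWD-1 strain. With arm means removed, a high mean for same-numbered pairs lowers that of the others. The 2 means are therefore not separate evidence, and the pairing of the RPOA-2 strain is weak. The labels do not state a pairing, and the block rests on these correlations. Library numbers of same-numbered libraries are adjacent in the GRWD-1 strain and in replicate 4 of the RPOA-2 strain. In the TSR-2 strain adjacent library numbers join libraries with unlike replicate numbers. What adjacent numbers share is not given in the labels. Alternatives were DESeq2 1.42.0, other scalings and filters, the replicate block, all groups in 1 fit, fractional counts, summed paralogs and leaving out each library. Identical libraries within a group numbered 0.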

Additional observations from a re-analysis of the deposited data

Results flagged for a closer look

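Groups of 4 libraries were screened for a single value far from the rest, by Dixon's ratio of the gap to the range at its 95% critical value. The number of groups screened was 24, and chance flags about 1 in 20. In the RPOA-2 strain, htp-1 in auxin replicate 4 stood at 37.7 CPM, below the other 3 auxin libraries at 59.4 to 62.5 CPM. In the same strain, htp-1 in ethanol replicate 1 stood at 82.6 CPM, above the other 3 ethanol libraries at 38.7 to 44.9 CPM. For rec-8, ethanol replicate 2 of the RPOA-2 strain stood at 204 CPM, below the other 3 ethanol libraries at 270.1 to 283 CPM.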

How the results depend on the processing

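The share of tested genes called moved under several settings, and the cause was not tested. In the RPOA-2 strain 3.78% became 7.68% with DESeq2, 1.43% with all groups in 1 fit, 1.58% with replicates 1 to 3 only, 0.337% on fractional counts and 0.0794 to 2.80% when each library was left out. The count moved by over 1.5 times without each library of that strain except auxin replicate 4 and ethanol replicate 2. In the GRWD-1 strain 2.69% became 6.61% with DESeq2, 5.85% with a mean of at least 50 counts, 1.13% on fractional counts, 14.03% with the replicate block and 0.316 to 1.68% when each library was left out, auxin replicate 2 alone moving it less than 1.5 times. In the TSR-2 strain 2.55% became 0.422% with DESeq2, 1.67% with no low-count filter (253 genes against 163), 2.12% with a mean of at least 50 counts (96 genes), 0.228% with all groups in 1 fit, 0.485% with the replicate block, and 0.0885% (without auxin replicate 3) to 6.41% (without ethanol replicate 1) when each library was left out, also moving without auxin replicate 1 (105 genes).

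Axis and cohesin genes called in the RPOA-2 strain became 1, htp-2, with DESeq2, total counts, the replicate block, the library series as a covariate, and without auxin replicate 4 (range 0 to 1), and in the GRWD-1 strain 2, coh-4 and smc-1, with the replicate block; the block changed no other call among the 10. No interaction call among the 10 changed in the alternatives run.

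The htp-1 share difference ran from -12.02 (exact permutation p = 0.0286 without ethanol replicate 3) to -6.37 points in the RPOA-2 strain, -9.49 to -2.32 in the GRWD-1 strain and -13.0 to 5.23 in the TSR-2 strain when each library was left out, turning without ethanol replicate 2. The rec-8 share difference ran from -2.41 to 0.131 points in the RPOA-2 strain, and was 0.140 on fractional counts. It ran from 1.53 to 6.27 in the GRWD-1 strain and 0.336 to 9.56 in the TSR-2 strain.

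The following log2 differences turned sign, among them coh-4 and smc-3 of the TSR-2 strain, at 0.19 and -0.17 in the fits reported. In the RPOA-2 strain htp-3 was -0.00696 with a mean of at least 50 counts and scc-3 was -0.0162 with DESeq2, -0.0178 with RLE size factors and -0.0322 with a mean of at least 50 counts. When each library of that strain was left out, htp-1 ran from -0.0496 to 0.346, htp-3 from -0.0362 to 0.0686, scc-3 from -0.0895 to 0.0558 and smc-3 from -0.0189 to 0.166. In the GRWD-1 strain htp-1 was 0.0290 with total counts, 0.0430 with no filter, 0.0102 with all groups in 1 fit and 0.00109 with the replicate block. There the summed counts of htp-1 plus htp-2 gave 0.181 and those of coh-3 plus coh-4 gave -0.0755, which are not estimates of a single gene. With each library left out, htp-1 ran from -0.115 to 0.188, htp-3 from -0.0967 to 0.0159 and scc-3 from -0.0120 to 0.175. In the TSR-2 strain smc-1 was 0.00837 with the replicate block and 0.00937 with adjacent library numbers as a block. With each library left out, coh-4 ran from -0.0652 to 0.331, smc-1 from -0.251 to 0.318 and smc-3 from -0.429 to 0.310. In 8 cases an alternative gave a gene no adjusted p. The call of scc-1 was also lost with no filter (adjusted p = 0.141), replicates 1 to 3 (0.0615) and fractional counts (0.113), that of syp-1 in the RPOA-2 strain on fractional counts (0.0805), and those of syp-1 and dpy-27 in the TSR-2 strain with all groups in 1 fit (0.0554 and 0.0740) and the replicate block (0.127 and 0.0794), syp-1 also with DESeq2 (0.0543) and dpy-27 with adjacent library numbers as a block (0.179). Depth limits the TSR-2 strain most, where auxin replicate 3 holds 1 to 25 counts on each of the 10 genes.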
